A study of Mus musculus with 14 samples.

Results

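The genes described here are the Egr family of transcription factors, Egr1, Egr2, Egr3 and Egr4, and the corepressor genes Nab1 and Nab2. They were chosen by symbol, and these 6 genes were each found in 1 row of the deposited table of 45802 features. Egr proteins bind a GC-rich DNA site through zinc fingers, and in neurons their genes belong to the immediate-early class, which is transcribed within minutes of synaptic activity without new protein synthesis. MAP kinase signalling to serum response factor and its ETS partners, such as Elk1, acts on CArG boxes near these genes, and CREB acts on CRE sites. Nab1 and Nab2 bind Egr1, Egr2 and Egr3 and repress their activity, while Egr4 is not bound by Nab proteins; Nab2 is itself known as an Egr target.

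RNA was sequenced from ribosome-depleted libraries of primary cortical neuron cultures from wild-type C57BL/6 mice at day 12 in vitro, after treatment for 1 h. The 14 libraries fell into 5 groups. Bicuculline, which blocks GABA-A receptors and so raises network activity, was given at 20 µM (3 libraries). Peptides from the neuronal membrane proteasome (NMP peptides, here the intact peptides) were given at 4% by volume (3 libraries). With the same dose, other cultures received 100 µM APV, which blocks NMDA receptors (NMP peptides plus APV; 3 libraries), or the peptides were first digested with proteinase K (PK-cleaved NMP peptides, here cleaved peptides; 3 libraries). The control cultures received 1% DMSO (2 libraries). A DMSO content is given for these control cultures alone, so solvent and treatment cannot be told apart against them. APV without peptides was not analysed here, and what APV does by itself cannot be told apart from what it does to the peptides. The cultures are mixed, and in bulk RNA fewer cells of a type and less RNA per cell cannot be told apart.

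The promoters of the members were read from RefSeq (GRCm38.p6), which gave windows for 4 of the 6 genes: Egr2 (5 windows), Egr4, Nab1 and Nab2 (1 window each). Each window of 300 bases was searched on both strands for the CArG box, the full CRE TGACGTCA, its core TGACG, and the EGR site GCGNGGGCG. The 200 bases before a start of Egr2 (chr10:67537669-67537868, plus strand) and before the start of Egr4 (chr6:85513590-85513789, minus strand) are shown because both were among the called genes and because their motifs differ. Capitals mark motif matches.

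Egr2: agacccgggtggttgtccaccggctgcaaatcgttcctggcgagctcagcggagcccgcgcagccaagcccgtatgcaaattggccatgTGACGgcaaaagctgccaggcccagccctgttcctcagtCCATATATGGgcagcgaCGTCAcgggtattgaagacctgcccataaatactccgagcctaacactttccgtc
Egr4: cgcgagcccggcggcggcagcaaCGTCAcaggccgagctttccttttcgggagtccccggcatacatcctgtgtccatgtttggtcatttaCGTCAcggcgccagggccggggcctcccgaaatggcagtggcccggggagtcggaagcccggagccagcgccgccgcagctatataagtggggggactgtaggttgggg

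The Egr2 stretch held a CArG box 72 to 63 bases before the start, between 2 CRE cores at 111 to 107 and 55 to 51 bases before it. The motif content of Egr2 depends on the start chosen: 2 other windows, which overlap this one, held the same 3 matches, the window starting at base 67537316 held a CArG box and no CRE core, and the window farthest upstream, starting at base 67535249, held no match. In the Egr4 stretch, 2 CRE cores lay 177 to 173 and 109 to 105 bases before the start, both read from the other strand, and its window held no CArG box. Of 32851 listed promoters of the same length, 1.63% held a CArG box, 20.8% a CRE core, 1.79% a full CRE and 5.55% an EGR site. These matches are letters in a window and do not show binding.

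Nab1 held 3 EGR sites, each printed with 5 bases on either side and the site in capitals (minus strand of chromosome 1). They are shown because the Nab genes encode partners of the Egr proteins. The sites fall in the first exon of 1 GENCODE transcript of Nab1, which starts farther upstream than the RefSeq start.

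Nab1 site 141 to 133 bases before the start, chr1:52500576-52500594: gcggcCGCCCACGCcggga
Nab1 site 109 to 101 bases before the start, chr1:52500544-52500562: gccgcGCGTGGGCGggagc
Nab1 site 38 to 30 bases before the start, chr1:52500473-52500491: gcgggGCGGGGGCGgcgga

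The site farthest upstream reads from the other strand. Nab1 also held a CRE core 123 to 119 bases before its start. None of the 4 motifs was found in the Nab2 window (chr10:127666654-127666953, minus strand). The annotated Nab2 gene reaches base 127668568, upstream of this window, and the bases around that start were not searched.

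**Figure D1:**
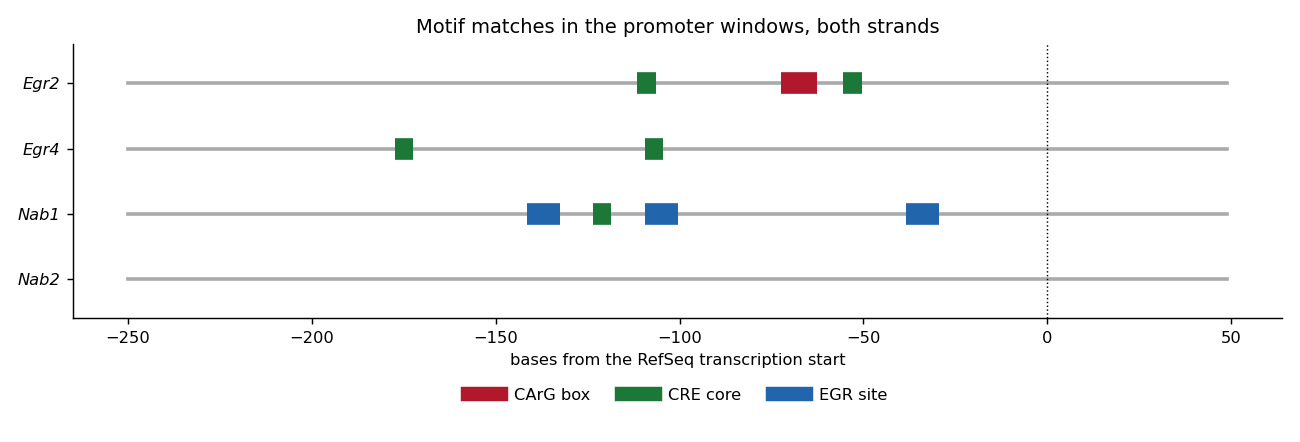
Motif matches (coloured blocks, both strands) along 1 RefSeq promoter window of each of Egr2, Egr4, Nab1 and Nab2, against the distance in bases from the transcription start. Egr2 holds a CArG box 72 to 63 bases before the start, Nab1 holds 3 EGR sites, and the Nab2 window holds no match.

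All 6 genes are annotated as protein coding (GENCODE M21, GRCm38): Egr1 at 34859823 to 34864984 on chromosome 18, Egr2 at 67535475 to 67542188 on chromosome 10, Egr3 at 70077203 to 70082614 on chromosome 14, Egr4 at 85511121 to 85513589 on chromosome 6, Nab1 at 52457294 to 52500679 on chromosome 1 and Nab2 at 127660918 to 127668568 on chromosome 10. Exons of Nab2 share bases with genes on the opposite strand: 40 with Stat6, 151 with Nemp1 and 1050 with the antisense gene Gm16229. Whether reads were counted by strand is not given in the sources used here, so reads of Nab2 and of these genes cannot be told apart. Stat6, with the smallest overlap, lay between -5.44 and -2.38 on the log2 scale, while Gm16229 and Nemp1 had no value in the table, so their share in the reads of Nab2 is unknown.

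The authors deposited log signals, taken here as log2, that all share 1 distribution, and they give no read depth. Antilogged and multiplied by exon length they sum to 1180000 to 1260000 per library, so levels were compared between genes as signals per length. All 6 members had a value in 14 of 14 libraries and were among the 10877 genes tested after the lowest 40% of features by mean level were dropped. Excitatory neuron markers, with a summed signal of 232 to 323, and inhibitory neuron markers, with 379 to 491, stood beside astrocyte markers at 325 to 415 and oligodendrocyte lineage markers at 118 to 176. Microglia markers summed to 0.524 to 0.901 and endothelial and mural markers to 1.18 to 1.82. Markers of neurons, astrocytes and the oligodendrocyte lineage were thus all present, and those of microglia and vessel cells were near 0.

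By mean level over all libraries, Egr1 stood highest of the 6, above 95% of the features with a value, at a mean log2 signal of 6.03. Egr3 (4.31) and Egr4 (4.07) came next, above 82.9% and 80.0% of features. Nab1 (2.49) and Nab2 (2.48) each lay above 59.4%. Egr2 was the least abundant at 1.60, above 49.7% of features.

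**Figure D2:**
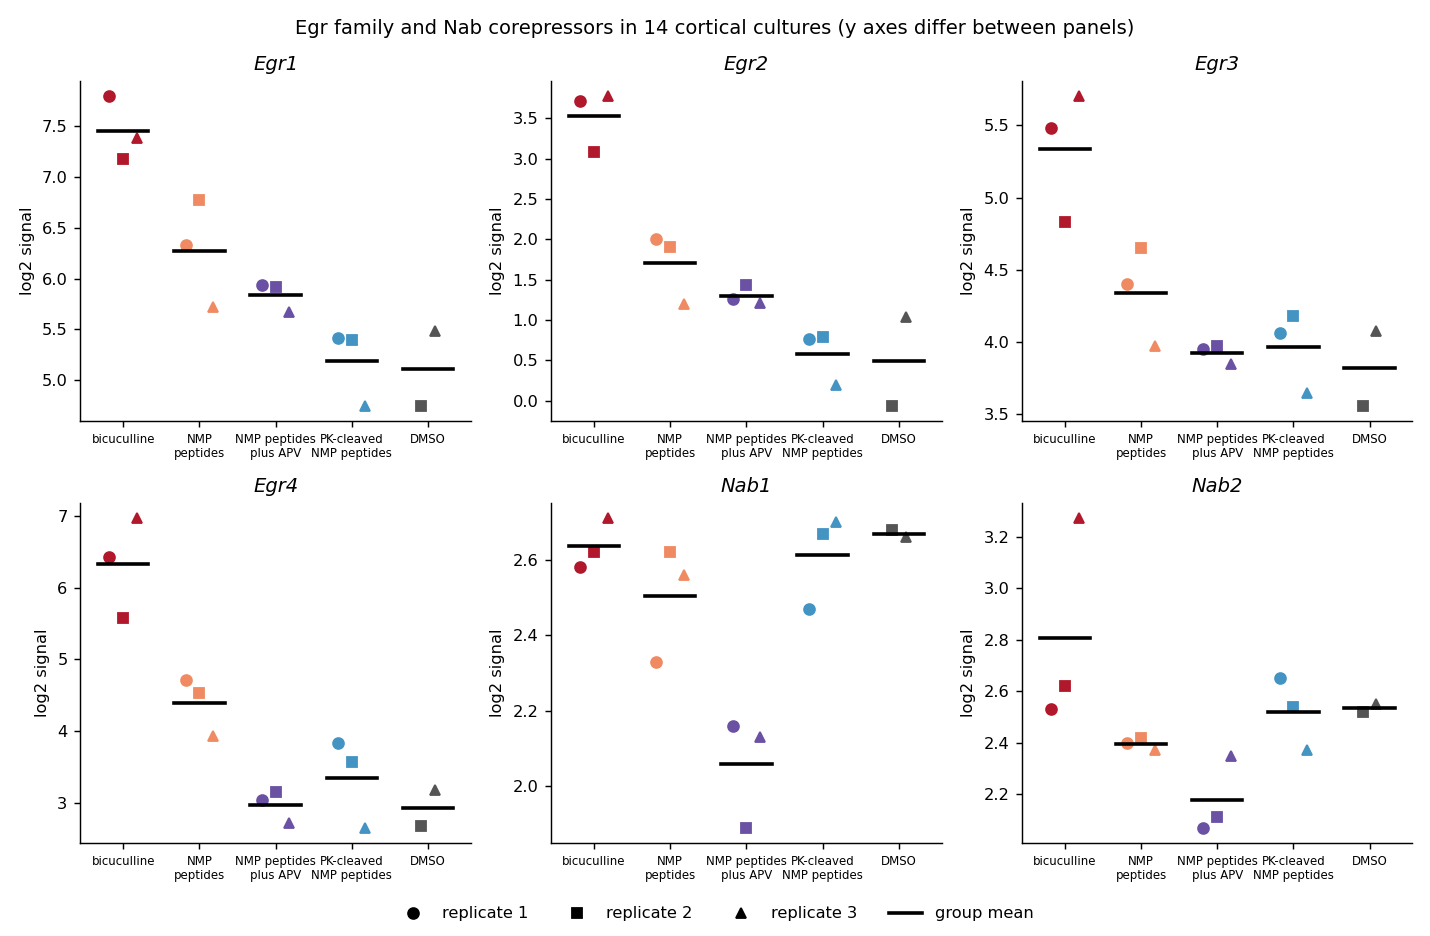
Log2 signal of each member in every library, by group, with the group mean as a bar and the marker shape giving the replicate number. Egr1, Egr2, Egr3 and Egr4 are highest in the 3 bicuculline libraries, whereas Nab1 is lowest in the 3 libraries of peptides plus APV, between 1.89 and 2.16.

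Bicuculline raised Egr1, Egr2, Egr3 and Egr4 and left neither Nab gene called. Egr1, which encodes the founding member of the family, had log2 signals of 7.79, 7.18 and 7.38 in the bicuculline libraries, against 4.75 and 5.48 in the DMSO libraries. Every bicuculline library lay above both DMSO libraries, and the DMSO libraries differed from each other more than the bicuculline libraries did. The rise was 5.05-fold (log2 fold change 2.34, SE 0.29, limma adjusted p = 0.000558).

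Egr2, also known as Krox20, which acts in hindbrain patterning and myelination, had 3.72, 3.08 and 3.77 in bicuculline libraries, against -0.06 and 1.04 in DMSO libraries. The groups stood apart by a wide margin, although the least abundant member was also the most uneven one between the DMSO libraries. It rose 8.19-fold (log2 fold change 3.03, SE 0.32, adjusted p = 0.000129).

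Egr3, which is needed for muscle spindle development and is an activity-dependent gene in neurons, had 5.48, 4.83 and 5.70 in bicuculline libraries, against 3.56 and 4.08 in DMSO libraries. Its rise was the smallest of the family, 2.86-fold (log2 fold change 1.52, SE 0.25, adjusted p = 0.00741). The call was lost without DMSO replicate 2 (1.25, adjusted p = 0.181) and when only the compared groups were fitted (adjusted p = 0.115).

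Egr4, also known as NGFI-C for its induction by nerve growth factor, had 6.43, 5.58 and 6.96 in bicuculline libraries, against 2.69 and 3.18 in DMSO libraries. Its rise was 10.5-fold (log2 fold change 3.39, SE 0.37, adjusted p = 0.000211). Per length, Egr4 stood above Egr3 in every bicuculline library and below it in both DMSO libraries. Bicuculline replicate 2 was the lowest of its group for each of the 4 Egr genes. In all, 4 of the 6 members were called, all of them Egr genes and all higher, where limma called 0.469% of all tested genes, each of them higher. Groups that did not overlap with bicuculline higher made up 5.81% of all genes.

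Intact peptides gave Egr values between those of bicuculline and the controls, and 0 of the 6 members were called with limma against either control. Egr1 had 6.33, 6.77 and 5.72 in the libraries with intact peptides, against 5.42, 5.40 and 4.75 with the cleaved peptides. The 3 intact libraries lay above the 3 cleaved ones (log2 fold change 1.08, SE 0.26, adjusted p = 0.572). Egr2 had 2.01, 1.91 and 1.20 with intact peptides, against 0.77, 0.79 and 0.20 with cleaved peptides. These groups did not overlap either (log2 fold change 1.12, SE 0.28, adjusted p = 0.73).

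Egr4 had 4.72, 4.53 and 3.94 with intact peptides, against 3.84, 3.57 and 2.66 with cleaved peptides. Every intact library was again above every cleaved one (log2 fold change 1.04, SE 0.33, adjusted p = 1). Egr3 had 4.40, 4.65 and 3.97 with intact peptides, against 4.06, 4.18 and 3.65 with cleaved peptides. For Egr3 the groups overlapped (0.38, SE 0.22, 95% interval -0.09 to 0.85).

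In each of Egr1, Egr2, Egr3 and Egr4, replicate 3 was the lowest of its group on both sides of this comparison. Same-numbered libraries of intact peptides and cleaved peptides deviated together over all genes. With the replicate number as a block and only these groups fitted, an alternative added after the data were seen, 3 members were called, where this fit called 0.23% of all genes. Egr1 then had an adjusted p of 0.00661 (SE 0.09), Egr2 of 0.00877 (SE 0.10) and Egr4 of 0.00631 (SE 0.08), while Egr3 had 0.0814. The pairing was read from these same values. Since replicate 3 was lowest on both sides, the block narrows the spread of the Egr genes by construction. The blocked calls are therefore no independent check. With the block and all libraries fitted, 0 members were called. Without a block, 3 of the 6 members had an unadjusted p under 0.05, as did 1.65% of all genes, and 0.0827% of all genes were called. Groups that did not overlap with the intact peptides higher, as for these 3 members, made up 2.48% of all genes.

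Against DMSO, the same 3 genes stood above both control libraries with intact peptides, with overlap for Egr3. The log2 fold change was 1.47 for Egr4 (SE 0.37, adjusted p = 0.784), 1.22 for Egr2 (SE 0.32, adjusted p = 0.862) and 1.16 for Egr1 (SE 0.29, adjusted p = 0.661). Egr3 had 0.52 (SE 0.25, adjusted p = 0.971). Without DMSO replicate 2 the values were 1.22 for Egr4, 0.66 for Egr2, 0.79 for Egr1 and 0.26 for Egr3, and without DMSO replicate 3 they were 1.71, 1.77, 1.52 and 0.79 in turn. At an unadjusted p under 0.05 stood 3 of the 6 members and 2.02% of all genes, and limma called 0.0184% of all genes. Groups that stood apart with intact peptides higher made up 4.28% of tested genes.

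With cleaved peptides against DMSO, Egr1, Egr2, Egr3 and Egr4 had log2 fold changes of 0.07, 0.10, 0.14 and 0.43. All 4 pairs of groups overlapped, and 0 members had an unadjusted p under 0.05, against 1.05% of all genes, with limma calling 0% of them. Groups that did not overlap made up 11% of all genes. The intervals were wide: the 95% interval for Egr1 ran from -0.54 to 0.69 and that for Egr4 from -0.37 to 1.23. An equal level with cleaved peptides and with DMSO is therefore not shown. Without DMSO replicate 2 the value was -0.45 for Egr2, -0.29 for Egr1, -0.12 for Egr3 and 0.18 for Egr4. Without DMSO replicate 3 it was 0.65 for Egr2, 0.44 for Egr1, 0.41 for Egr3 and 0.67 for Egr4.

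**Figure D3:**
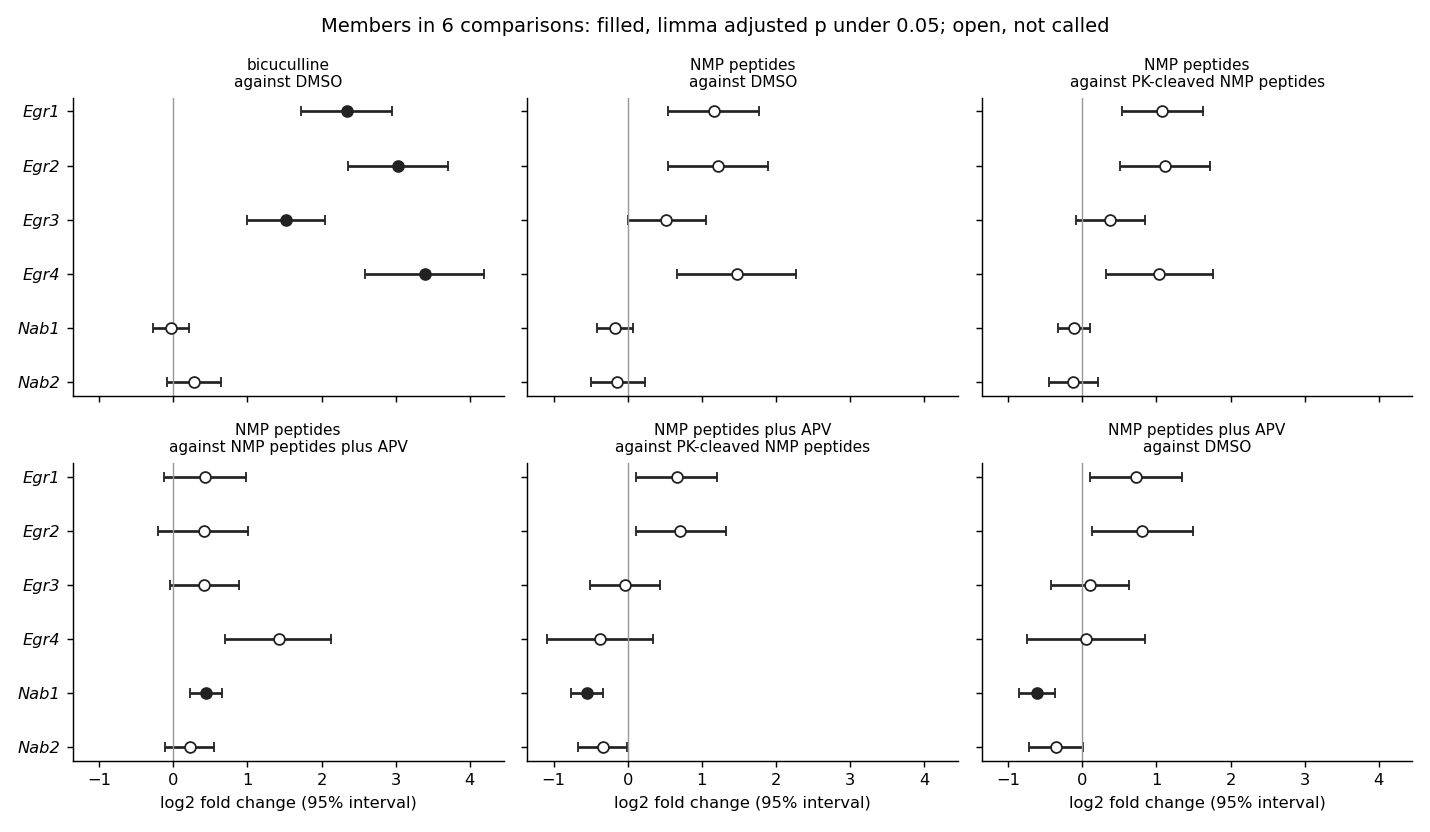
Log2 fold change (points) with the 95% interval (bars) of each member in 6 comparisons, filled where the limma adjusted p was under 0.05. The 4 Egr genes are filled for bicuculline against DMSO, and Nab1 is filled in the 3 comparisons shown that hold peptides plus APV, where the Egr genes are open.

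Bicuculline was set against intact peptides directly. Of the 6 members, 2 were higher with bicuculline, where 0.175% of all genes were called: Egr2 by 1.82 on the log2 scale (SE 0.28, adjusted p = 0.0166) and Egr4 by 1.92 (SE 0.33, adjusted p = 0.0305). All 4 Egr genes were higher in each bicuculline library than in each library with intact peptides, as 3.29% of all genes were, and Egr1 (1.18, SE 0.26, adjusted p = 0.138) and Egr3 (0.99, SE 0.22, adjusted p = 0.146) missed the threshold. The Egr2 call was lost without bicuculline replicate 1 (1.72, adjusted p = 0.0968), bicuculline replicate 3 (1.69, adjusted p = 0.101) or intact peptides replicate 3 (1.56, adjusted p = 0.0944). The Egr4 call was lost without bicuculline replicate 1 (1.87, adjusted p = 0.139) or replicate 3 (1.60, adjusted p = 0.159). It was also lost without intact peptides replicate 1 (2.09, adjusted p = 0.0887), replicate 2 (1.99, adjusted p = 0.0897) or replicate 3 (1.70, adjusted p = 0.189). Egr3 was called without bicuculline replicate 2 (1.25, adjusted p = 0.0109). Both calls were lost when only these groups were fitted (adjusted p = 0.0693 for Egr2 and 0.154 for Egr4). Against cleaved peptides, the 4 Egr genes rose with bicuculline by log2 fold changes of 2.26 (Egr1), 2.93 (Egr2), 1.37 (Egr3) and 2.96 (Egr4), with 0.533% of all genes called.

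When APV was given with the peptides, Egr4 was the 1 Egr gene whose libraries did not overlap with those of intact peptides, and Nab1 was the 1 member called. Egr4 had 3.05, 3.16 and 2.73 in libraries of peptides plus APV, between the DMSO values of 2.69 and 3.18. The intact peptides gave 4.72, 4.53 and 3.94, all above the libraries with APV, as 12.2% of all genes were. The log2 fold change for intact peptides against peptides plus APV was 1.42 (SE 0.33, 2.67-fold, adjusted p = 0.0534), outside the threshold. It was called without intact peptides replicate 3 (1.65, adjusted p = 0.0499) and when only these groups were fitted (adjusted p = 0.00678).

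Egr1 had 5.94, 5.92 and 5.67 with peptides plus APV, against 6.33, 6.77 and 5.72 with intact peptides. These groups overlapped, with intact peptides replicate 3 below 2 of the APV libraries, and the difference was 0.43 (SE 0.26, adjusted p = 0.435). Egr2 also overlapped, at 1.26, 1.43 and 1.21 with peptides plus APV, against 2.01, 1.91 and 1.20 with intact peptides (0.41, SE 0.28, adjusted p = 0.506). Egr3 had 3.95, 3.97 and 3.85 with peptides plus APV, against 4.40, 4.65 and 3.97 with intact peptides (0.42, SE 0.22, adjusted p = 0.371), and here too replicate 3 of the intact peptides reached down to the APV libraries. The 95% interval of the difference was -0.12 to 0.98 for Egr1, which holds changes in either direction.

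Set against the cleaved peptides, the libraries with peptides plus APV lay above all cleaved libraries for Egr1 (0.66, SE 0.26, adjusted p = 0.24) and Egr2 (0.71, SE 0.28, adjusted p = 0.248). For Egr3 (-0.04, SE 0.22) and Egr4 (-0.38, SE 0.33, adjusted p = 0.617) the groups overlapped. Against DMSO the values with peptides plus APV were 0.73 for Egr1 (SE 0.29, adjusted p = 0.345), 0.81 for Egr2 (SE 0.32, adjusted p = 0.341), 0.10 for Egr3 and 0.05 for Egr4. These values turn on the DMSO libraries: without DMSO replicate 2 they were 0.36 for Egr1, 0.26 for Egr2, -0.16 for Egr3 and -0.20 for Egr4, and without DMSO replicate 3 they were 1.10, 1.36, 0.37 and 0.29. Limma called 0 of the 4 Egr genes in these comparisons, and Egr1 and Egr2 had an unadjusted p under 0.05 in both, as did 15.6% of all genes against cleaved peptides and 11.5% against DMSO. Groups that did not overlap with peptides plus APV higher made up 8.84% of all genes against the cleaved peptides and 8.86% against DMSO. Bicuculline against peptides plus APV gave 6 of 6 members higher, where 2.38% of all genes were called higher and 3.33% in either direction. Egr4 led with 3.34 on the log2 scale (SE 0.33), followed by Egr2 (2.22), Egr1 (1.61) and Egr3 (1.41).

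Neither corepressor gene was called for bicuculline against DMSO, and Nab1 was lower in the libraries with APV. Nab1 had 2.58, 2.62 and 2.71 in bicuculline libraries, 2.33, 2.62 and 2.56 with intact peptides, and 2.47, 2.67 and 2.70 with cleaved peptides, against 2.68 and 2.66 with DMSO. These 4 groups lay within a narrow band. The log2 fold change of Nab1 with bicuculline against DMSO was -0.03 (SE 0.11, 95% interval -0.27 to 0.21), an interval that holds small changes in either direction.

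The libraries with peptides plus APV had the lowest Nab1 of all, at 2.16, 1.89 and 2.13. Every one of them was below each of the other 11 libraries. Of all tested genes, 21% were lower in every APV library than in every DMSO library. The share was 11.4% against cleaved peptides and 12.2% against intact peptides. The share below all 11 libraries was not computed. Nab1 was lower against DMSO (log2 fold change -0.61, SE 0.11, adjusted p = 0.0244) and against cleaved peptides (-0.55, SE 0.10, adjusted p = 0.0155). It was higher with intact peptides than with peptides plus APV (0.44, SE 0.10, adjusted p = 0.0443). Of the 6 members, 1 was called in each of these comparisons, where limma called 0.625% of all genes against DMSO (0.45% lower), 1.39% against cleaved peptides (0.781% lower) and 1.43% between intact peptides and peptides plus APV (0.883% higher).

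These Nab1 calls lay near the threshold. Against DMSO the call was lost without DMSO replicate 2 (-0.60, adjusted p = 0.168), DMSO replicate 3 (-0.62, adjusted p = 0.206), APV replicate 1 (-0.66, adjusted p = 0.051) or APV replicate 2 (-0.53, adjusted p = 0.101). Against cleaved peptides it was lost without cleaved peptides replicate 3 (-0.51, adjusted p = 0.071) or APV replicate 2 (-0.47, adjusted p = 0.0702). For intact peptides against peptides plus APV it was lost without intact peptides replicate 2 (0.38, adjusted p = 0.136) or replicate 3 (0.41, adjusted p = 0.159). There it was also lost without APV replicate 1 (0.49, adjusted p = 0.0824), replicate 2 (0.36, adjusted p = 0.135) or replicate 3 (0.48, adjusted p = 0.0983). All 3 calls were also lost when only the compared groups were fitted (adjusted p = 0.0798 against DMSO, 0.071 against cleaved peptides and 0.0988 for intact peptides against peptides plus APV). With bicuculline against peptides plus APV, Nab1 was higher by 0.58 (SE 0.10, adjusted p = 0.00436), and this call was kept in all 11 alternatives in which Nab1 was tested.

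Nab2 had 2.53, 2.62 and 3.27 in bicuculline libraries, against 2.52 and 2.55 with DMSO. Bicuculline replicate 3 stood above the rest, while the other 2 bicuculline libraries lay near the DMSO libraries (log2 fold change 0.28, SE 0.17, 95% interval -0.09 to 0.64). With intact peptides Nab2 had 2.40, 2.42 and 2.37, with peptides plus APV 2.07, 2.11 and 2.35, and with cleaved peptides 2.65, 2.54 and 2.37. The libraries with APV were again lowest, by -0.34 against cleaved peptides (SE 0.15, adjusted p = 0.304) and -0.36 against DMSO (SE 0.17, adjusted p = 0.448). Groups that did not overlap with APV lower made up 11.4% of all tested genes against cleaved peptides and 21% against DMSO. For intact peptides against DMSO, both Nab genes were lower in every library, by -0.17 for Nab1 (SE 0.11, adjusted p = 0.971) and -0.14 for Nab2 (SE 0.17, adjusted p = 0.971), as were 13.1% of all genes. For cleaved peptides against DMSO, Nab1 had -0.06 (95% interval -0.30 to 0.18) and Nab2 had -0.02 (95% interval -0.38 to 0.35).

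Nab2 was called in 1 comparison, higher with bicuculline than with peptides plus APV (0.63, SE 0.15, adjusted p = 0.0368). The call was lost without bicuculline replicate 3 (0.40, adjusted p = 0.0939), APV replicate 1 (0.58, adjusted p = 0.145), replicate 2 (0.60, adjusted p = 0.102) or replicate 3 (0.72, adjusted p = 0.0517). It was also lost when only these groups were fitted (adjusted p = 0.0919).

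Summed marker signals of astrocytes and inhibitory neurons had ranges of their own with APV. The 8 astrocyte markers had a summed signal of 401 to 415 in the libraries with peptides plus APV, against 325 to 386 with intact peptides, 339 to 371 with cleaved peptides and 366 to 370 with DMSO. The summed signal of inhibitory neuron markers lay below the other groups, with 379 to 391 under peptides plus APV. It was 414 to 491 with intact peptides, 421 to 449 with cleaved peptides and 428 to 448 with DMSO. Single markers differed in direction. Against intact peptides, mean log2 signals of Sst, Gad1, Slc32a1 and Dlx2 were lower with APV. Those of Gad2 (3.42 against 3.3) and Dlx1 (4.52 against 4.43) were higher. Excitatory neuron and oligodendrocyte lineage sums also reached their highest values, 323 and 176, with APV, but overlapped other groups. The part of these shifts in the Nab1 and Nab2 values was not tested.

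The ratios among the members were read within each library, where differences between libraries in overall scale cancel. Egr4 minus Egr1 was -2.86 ± 0.10 (log2 difference in signal, SD, n = 3) with peptides plus APV, against -1.87 ± 0.33 with intact peptides (SD, n = 3) and -1.83 ± 0.26 with cleaved peptides (SD, n = 3). The 3 libraries with APV lay below every other library for this difference. The difference was -1.03 for peptides plus APV against cleaved peptides and 0.99 for intact peptides against peptides plus APV (exact two-sided permutation test, p = 0.1 for each, adjusted p = 0.286).

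Egr3 minus Egr1 split the groups differently. It was -2.11 ± 0.38 with bicuculline, -1.93 ± 0.18 with intact peptides and -1.92 ± 0.09 with peptides plus APV (SD, n = 3 each), against -1.23 ± 0.13 with cleaved peptides (SD, n = 3) and -1.29 ± 0.14 with DMSO (SD, n = 2). All 9 libraries with bicuculline, intact peptides or peptides plus APV lay below all 5 with cleaved peptides or DMSO. This division of the groups was read from the same values and was not tested. The difference between the intact and cleaved peptides was -0.70, also with APV present, again at the smallest exact permutation p that 3 against 3 libraries allow (p = 0.1, adjusted p = 0.286).

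Egr2 minus Egr1 was -3.93 ± 0.27 with bicuculline (SD, n = 3), against -4.62 ± 0.27 with DMSO (SD, n = 2; exact permutation p = 0.2). In the peptide groups it stayed between -4.60 and -4.54 on average, within the spread of DMSO. Egr4 minus Egr1 likewise was -1.13 ± 0.62 with bicuculline (SD, n = 3), against -2.18 ± 0.17 with DMSO (SD, n = 2; exact permutation p = 0.2). That difference of 1.05 was 0.70 without bicuculline replicate 3. Nab2 minus Nab1 was 0.17 ± 0.34 with bicuculline, against -0.14 ± 0.03 with DMSO, and their difference of 0.31 was 0.11 without bicuculline replicate 3.

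Egr1 was also set against Fos, a subunit of AP-1, and Npas4, a transcription factor gene induced by calcium entry in neurons. Egr1 minus Npas4 was 2.88 ± 0.08 with intact peptides, 5.80 ± 0.21 with peptides plus APV and 4.25 ± 0.30 with cleaved peptides (SD, n = 3 each), against 3.81 ± 0.19 with DMSO (SD, n = 2). Egr1 thus stood highest over Npas4 in the 3 libraries with APV, which lay above all others. Egr1 minus Fos was 0.08 ± 0.11 with intact peptides, against 1.06 ± 0.15 with peptides plus APV (SD, n = 3 each; exact permutation p = 0.1). In these groups Fos was called higher with intact peptides (log2 fold change 1.42, adjusted p = 0.0114), as was Npas4 (3.35, adjusted p = 3.75e-05). Within-library differences were compared in 60 exact permutation tests, in which 3 against 3 libraries cannot go below p = 0.1 nor 3 against 2 below p = 0.2, and the smallest adjusted p was 0.286.

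**Figure D4:**
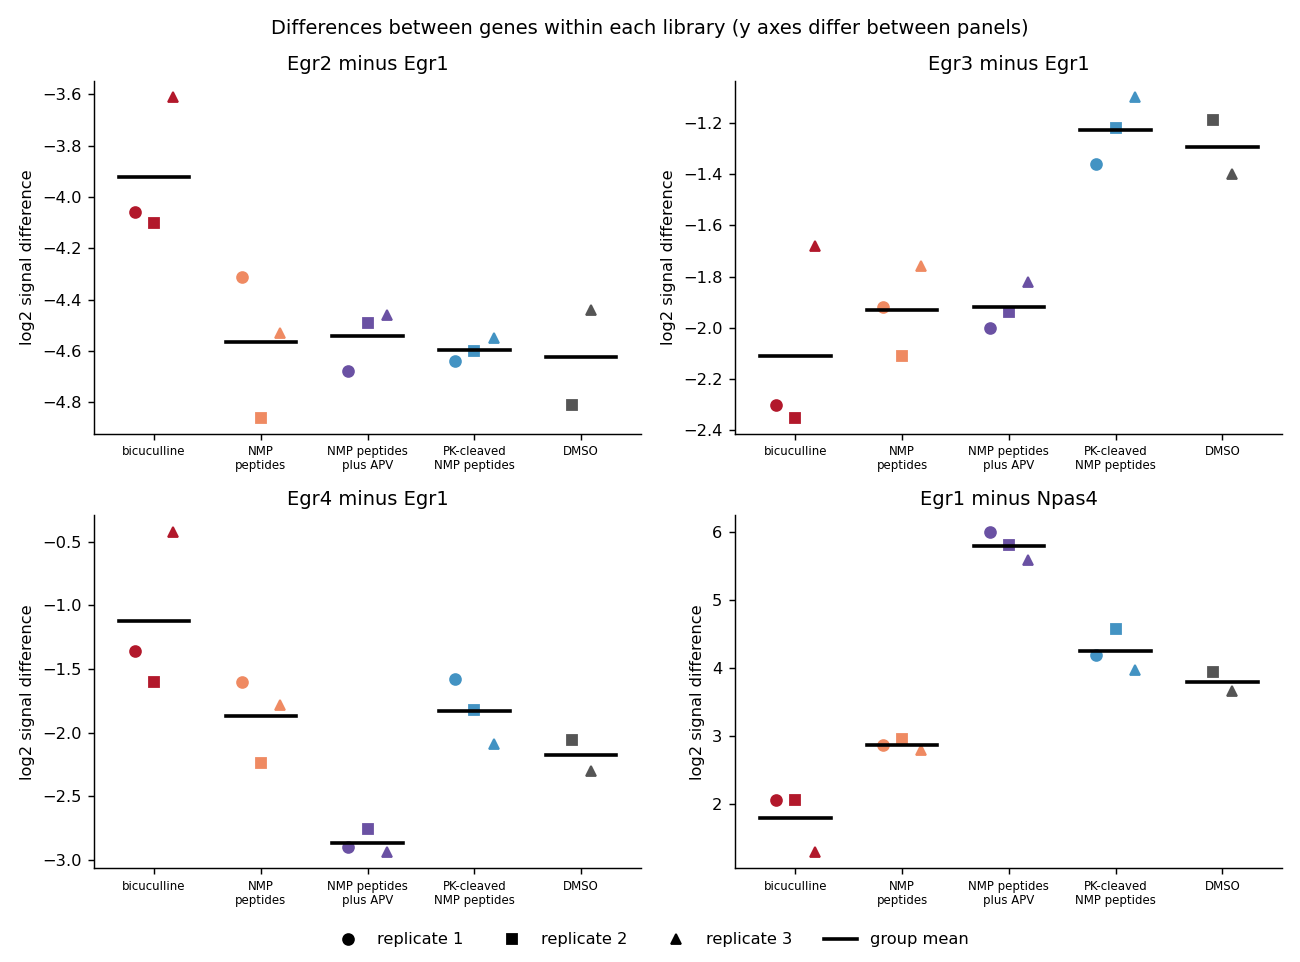
Log2 differences in signal between genes within each library, by group, with the group mean as a bar. Egr4 minus Egr1 is lowest in the 3 libraries with peptides plus APV, and Egr3 minus Egr1 is between -1.40 and -1.10 with cleaved peptides and DMSO but between -2.35 and -1.68 in the other groups.

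The genes whose pattern was most like each member were found by Pearson's r over the 14 libraries, which share the treatment groups and any deviation between libraries, so r is a description. Egr1 was most like Egr2 (r = 0.98), then Dusp6, which encodes an ERK phosphatase (r = 0.969), and Junb, a subunit of AP-1 (r = 0.965). Egr2 was most like Egr1, Junb and Arc (r = 0.971 for each of the last 2). Over the 9 libraries of the peptide groups alone, Egr1 was again most like Egr2 (r = 0.964), followed by Adamts1, which encodes a secreted protease (r = 0.936), and Klhl15 (r = 0.923).

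Egr3 was most like Dnajb1, a co-chaperone gene (r = 0.974), Egr4 (r = 0.972) and Arc (r = 0.97). Egr4 was most like Gadd45b, a growth arrest and stress gene (r = 0.989), Ccno (r = 0.985) and the phosphatase gene Dusp1 (r = 0.984). Egr4 with Egr1 had an r of 0.909 over all libraries and 0.681 over the peptide libraries.

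Nab1 was most like Nudt4, a phosphohydrolase gene (r = 0.97), Zcchc2 (r = 0.967) and Ptpn1, which encodes a tyrosine phosphatase (r = 0.961). Nab2 was most like Grasp, which encodes a scaffold of metabotropic glutamate receptors (r = 0.955), Crem, a cAMP-response transcription factor gene (r = 0.935), and Shisa2 (r = 0.932). By ranks these likenesses were weaker. Spearman's rho was 0.78, 0.868 and 0.798 for Nab1, and 0.881, 0.745 and 0.824 for Nab2, in the same order. The weight of the libraries with APV or of bicuculline replicate 3 in r was not tested. With Egr1, Nab1 had an r of 0.049 and Nab2 of 0.386.

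Gfap, an astrocyte gene, had log2 signals of 4.18 in bicuculline replicate 2, 4.15 in intact peptides replicate 3, 3.97 in cleaved peptides replicate 3 and 4.13 in DMSO replicate 2, against 2.15 to 3.47 in the other libraries. In each of these 4 libraries, Egr1, Egr2, Egr3 and Egr4 were all the lowest of their group of 2 or 3, 16 of 16 values, a pattern noticed after the data were seen. The Egr genes vary together over the libraries, so these values are not independent of each other. The share of all tested genes with the same pattern was not computed. Nab1 was lowest in 0 of the 4 libraries and Nab2 in 3. The part of Gfap in these values was not tested. The summed signal of the other 7 astrocyte markers did not follow Gfap. On the linear scale their summed signal was 338 in bicuculline replicate 2, against 346 and 371 in the other bicuculline libraries, and 348 in DMSO replicate 2, against 364 in the other DMSO library. It was 346 in intact peptides replicate 3, between 320 and 379 in the others, and 340 in cleaved peptides replicate 3, between 333 and 366 in the others. The libraries of peptides plus APV had the highest sums, 394 to 409, with Gfap at log2 signals of 2.61 to 2.77. The 4 libraries were picked as those of highest Gfap, so their separation by Gfap is given by that choice. The part of astrocyte content in the Egr values was not tested.

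The fit was repeated without these 4 libraries, which leaves 1 DMSO library. Since they held the lowest Egr values of their groups, leaving them out narrows the spread of the Egr genes by construction, and the calls are no independent check of those above. The SE of Egr2 for bicuculline against DMSO became 0.15, against 0.32 with all libraries. All 4 Egr genes were called for bicuculline against DMSO, where 0.414% of all genes were called. Intact peptides against cleaved peptides, with 0.0919% of all genes called, then gave Egr1 (1.14, SE 0.17, adjusted p = 0.0435) and Egr2 (1.18, SE 0.12, adjusted p = 0.00281). Intact peptides against peptides plus APV, with 0.837% of all genes called, gave Egr4 (1.65, adjusted p = 0.00162), Egr2 (0.66, adjusted p = 0.022) and Egr3 (0.61, adjusted p = 0.0273), and no longer Nab1 (0.41, adjusted p = 0.266). Bicuculline against intact peptides, with 0.211% of all genes called, gave all 4 Egr genes, with Egr1 at 1.04 (adjusted p = 0.0414) and Egr3 at 1.06 (adjusted p = 0.00309). Nab1 was not called against DMSO (-0.60, adjusted p = 0.323) or against cleaved peptides (-0.51, adjusted p = 0.142), nor was Nab2 for bicuculline against peptides plus APV (0.72, adjusted p = 0.0918).

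**Figure D5:**
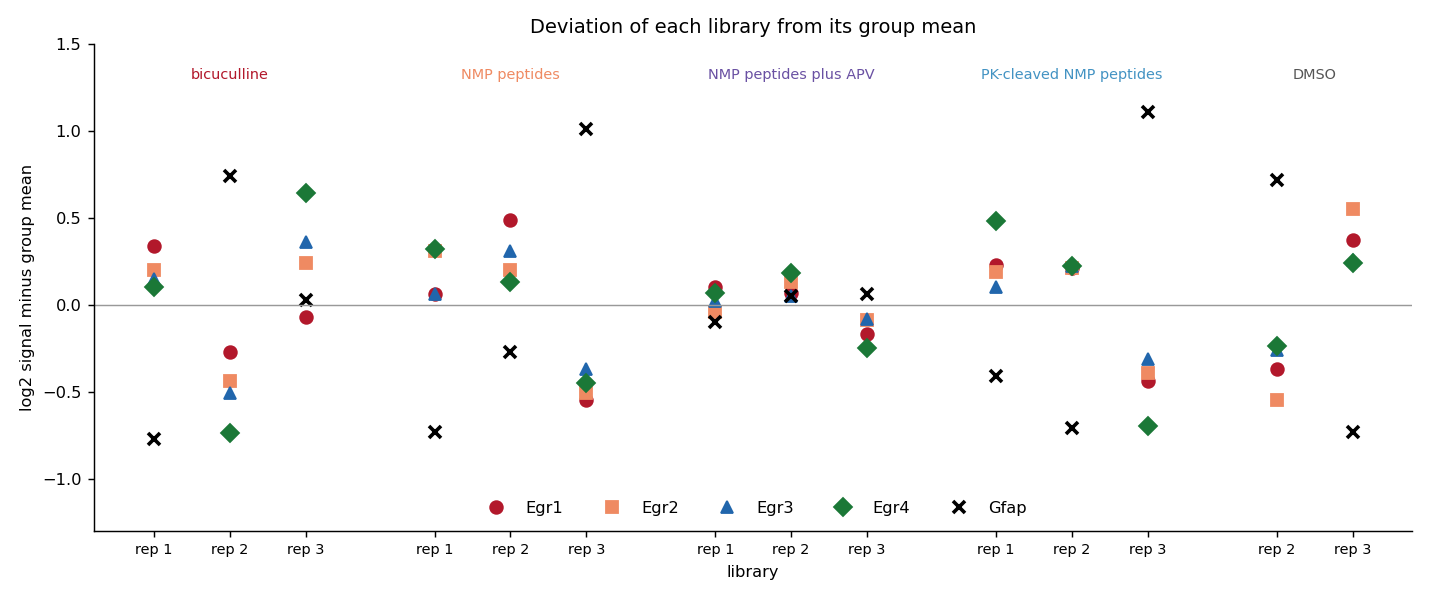
Deviation of Egr1, Egr2, Egr3, Egr4 and Gfap from the group mean (log2 signal) in each library. In the 4 libraries where Gfap is at least 0.72 above its group mean, all 4 Egr genes lie below theirs.

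Other genes of the Egr pathway were followed by lists. Among 20 tested genes from MAP kinases to serum response factor, which act upstream of Egr transcription, limma called 0 for bicuculline against DMSO and 0 had an unadjusted p under 0.05, against 3.14% of all genes, at a median of -0.08 on the log2 scale, where all tested genes had -0.03. Elk1, which encodes an ETS partner of serum response factor, was the list's called gene in 3 comparisons. It was higher with peptides plus APV than with cleaved peptides (log2 fold change 1.17, SE 0.10, adjusted p = 7.64e-05) and than with DMSO (1.08, SE 0.11, adjusted p = 0.000309). It was lower with intact peptides than with peptides plus APV (-1.25, SE 0.10, adjusted p = 3.32e-05). For bicuculline against peptides plus APV, Elk1 (-1.2) and Rps6ka5, a kinase gene of the MAP kinase pathway (-0.54, adjusted p = 0.0495), were lower. Over all genes, limma called 1.39% for peptides plus APV against cleaved peptides and 0.625% against DMSO. It called 1.43% for intact peptides and 3.33% for bicuculline, each against peptides plus APV. In these comparisons, in that order, 6, 2, 6 and 7 of the 20 genes had an unadjusted p under 0.05. The same held for 1701, 1252, 1723 and 2029 of 10877 tested genes.

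Among 16 corepressor and cofactor genes other than the Nab genes, limma called 0 for bicuculline against DMSO and 1 had an unadjusted p under 0.05, near the 3.14% of all genes (median -0.05). The list's called gene elsewhere was Mta3, which encodes a subunit of the NuRD complex that Nab proteins recruit. It was higher with peptides plus APV than with DMSO (0.43, SE 0.09, adjusted p = 0.0484) and than with cleaved peptides (0.47, SE 0.08, adjusted p = 0.0125), and lower with intact peptides (-0.52, SE 0.08, adjusted p = 0.00639) or bicuculline (-0.48, SE 0.08, adjusted p = 0.00327) than with peptides plus APV. Of all tested genes, limma called 0.625%, 1.39%, 1.43% and 3.33% in these comparisons, in that order. An unadjusted p under 0.05 was reached by 2, 4, 4 and 6 of the 16 listed genes. It was reached by 1252, 1701, 1723 and 2029 of 10877 tested genes.

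Of 20 genes reported as Egr targets in neurons, a list that includes Nab2, 14 were tested. Arc encodes a synaptic cytoskeletal protein and is itself an immediate-early gene. It was the 1 called for bicuculline against DMSO (log2 fold change 4.15, SE 0.38, adjusted p = 5.32e-05). The list's median there was -0.01, and limma called 0.469% of all genes. Arc was also called for bicuculline against intact peptides (2.51, adjusted p = 0.00897) and cleaved peptides (3.91, adjusted p = 2.07e-05). Against peptides plus APV, both Arc (3.85, adjusted p = 1.41e-05) and Nab2 were called. Limma called 0.175%, 0.533% and 3.33% of all genes in these comparisons, in that order. Arc was not called for intact peptides against cleaved peptides (1.40, SE 0.34, adjusted p = 0.592) or against peptides plus APV (1.35, SE 0.34, adjusted p = 0.0708). Of 7 Egr2 targets of myelinating cells, a list that includes Egr2 itself, 3 were tested. Egr2, whose calls are those given above, was the 1 called in any comparison. The other tested genes, Pmp22 and Mbp, were called in none.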

How the data were processed

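The authors deposited log signals, taken here as log2 (handled as a score per feature, with a mark where a feature has no value), on build GRCm38.p6, per the submitters' processing notes. Every library has the median 2.19 and the maximum 12.0, so the values were brought to 1 distribution and a shift of all RNA is not visible in them. The sources used here do not give an aligner or a counter, nor any read depth. That the logarithm has base 2 was inferred from the values, on the assumption that they are signals per exon length with a fixed total. Multiplied by exon length, the antilogs of a library add up to between 1180000 and 1260000, while base e would give 8330000 to 9050000. Without the length, the sums were 287000 to 294000 for base 2 and 2550000 to 2610000 for base e. Every fold change given here rests on base 2. Of 45802 features, 18128 had a value in some library and 15824 to 16231 in each.

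The lowest 40% of features by mean were dropped, leaving 10877 genes. Group means of the 14 libraries were fitted in 1 model with limma 3.58.1 (R 4.3.3, empirical Bayes with a variance trend). Its 10 comparisons were each adjusted over all genes by the Benjamini-Hochberg method (two-sided), with a call at an adjusted p under 0.05. Comparisons share libraries: 4 share the DMSO libraries. The labels speak of biological replicates but do not name the unit, so the p-values reflect the spread between these libraries. The fit was tested on simulated data with noise drawn independently for each gene, unlike deviations that genes of a library share. Between comparisons, 86.6% to 98.5% of changes of 1 on the log2 scale were recovered. False calls made up 3.39% to 7.89% of the calls. Each simulated comparison held 200 changed genes, whereas limma called 2 genes for intact peptides against DMSO. There Egr1 (1.16, SE 0.29), Egr2 (1.22, SE 0.32) and Egr4 (1.47, SE 0.37) exceeded 1 and were not called. Recovery at the SE of the members was not tested, so these percentages do not give the power for them. Within-library differences were tested by exact permutation (scipy 1.17.1).

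Replicate numbers were taken to pair groups where each of 3 pairs of libraries correlated above 0.1 in deviations from the group means. Intact and cleaved peptides met this rule (0.51, 0.499 and 0.613). The pairing comes from the values, since no label states it. Comparisons against DMSO, which has 2 libraries, could not meet the rule. Their correlations for replicates 2 and 3 were 0.542 and 0.169 with bicuculline and 0.305 and 0.349 with peptides plus APV. They were -0.341 and -0.48 with intact peptides and -0.449 and -0.413 with cleaved peptides.

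The members and gene lists were chosen with earlier results of these data known. Named genes were the 6 members, the called genes of the lists, the 3 genes most like each member without predicted gene models, Gfap, and immediate-early genes set against a member. Alternatives were no filter, dropping 60%, median centring, fitting the compared groups alone, a replicate block and leaving out each library. Leaving out the 4 libraries of highest Gfap, and a block over the paired groups alone, were added after seeing the data. A planned comparison of the proteins was not run.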

Additional observations from a re-analysis of the deposited data

How the results depend on the processing

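All 19 called values of the members kept their direction in every alternative run, and 12 of them kept the call in each that tested them. Of 41 values not called, 33 were called in no alternative. Dropping 60% left Egr2, Nab1 and Nab2 untested. It therefore gave 0 called members, against 1, for peptides plus APV against DMSO, intact peptides against peptides plus APV and peptides plus APV against cleaved peptides, 1, against 2, for bicuculline against intact peptides, and 3, against 6, for bicuculline against peptides plus APV. With only the compared groups fitted, 0 members were called for peptides plus APV against DMSO, peptides plus APV against cleaved peptides and bicuculline against intact peptides. No filter gave 0 for intact peptides against peptides plus APV. The replicate block gave 0 there and for peptides plus APV against DMSO, 1 for bicuculline against intact peptides, and, with only the paired groups fitted, 3 for intact peptides against cleaved peptides; it moved no other count of called members by over 1.5 times, and outside the paired groups the numbers were not taken as pairs. Nab2 for bicuculline against peptides plus APV also lost its call with the block (0.63, adjusted p = 0.0533). Without the 4 libraries of highest Gfap the counts were 0 for peptides plus APV against DMSO and against cleaved peptides, 2 for intact peptides against cleaved peptides, 3 for intact peptides against peptides plus APV and 4 for bicuculline against intact peptides. Leaving out 1 library gave 0 to 1 for peptides plus APV against DMSO and against cleaved peptides, 0 to 3 for bicuculline against intact peptides, and 0 to 1 for intact peptides against peptides plus APV. The cause was not tested where no fewer genes or libraries entered the fit.

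Small values turned round. For cleaved peptides against DMSO, Nab2 was 0.01 with median centring, 0.01 with the block and 0.05 without the 4 libraries, Egr1 was -0.02 with the block and -0.07 without the 4 libraries, and Egr2 was -0.26 without them. For peptides plus APV against DMSO, Egr4 was -0.08 with the block, and without the 4 libraries Egr3 was -0.16 and Egr4 was -0.20. Nab1 for bicuculline against DMSO was 0.00 with the block. Leaving out 1 library spanned -0.29 to 0.44 for Egr1, -0.45 to 0.65 for Egr2, -0.12 to 0.41 for Egr3, -0.10 to 0.01 for Nab1 and -0.08 to 0.06 for Nab2 in cleaved peptides against DMSO. It spanned -0.16 to 0.37 for Egr3 and -0.20 to 0.29 for Egr4 in peptides plus APV against DMSO, -0.20 to 0.07 for Egr3 in peptides plus APV against cleaved peptides, -0.05 to 0.07 for Nab1 in bicuculline against cleaved peptides, and -0.15 to 0.12 for Egr2 minus Egr1 in intact peptides against peptides plus APV. A lone DMSO library was assumed to have the spread of the other groups. With 2 or 3 libraries a group and no read depth, differences inside the stated intervals could not be told from none.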
